A study of Mus musculus with 6 samples.

Results

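Annexins are the subject here: 8 genes of the calcium-dependent, phospholipid-binding annexin family, Anxa1, Anxa2, Anxa3, Anxa4, Anxa5, Anxa6, Anxa7 and Anxa11, out of 57180 genes in the deposited count table and 12 annexin genes in it. They were chosen by gene name within the family, with earlier results of the same comparison known, so the values that follow describe these libraries and are no independent support for a family pattern. The cells were macrophages derived from bone marrow, obtained by growing marrow precursors with the growth factor M-CSF, here at 20 ng/mL for 7 days. All 6 libraries came from wild-type (WT) mice of 6 to 8 weeks, and all 6 cultures received IL-4 at 20 ng/mL, a cytokine that drives alternative activation. Of these cultures, 3 received IL-4+CGRP for 24 h and 3 received IL-4 alone for 24 h, with 1 library each. CGRP is a neuropeptide released by sensory nerves, and its dose is left out here since the labels do not state it clearly. Since both groups had IL-4, what CGRP does alone and what it does to the response to IL-4 cannot be told apart. Whether replicates came from separate animals or cultures is not stated in the labels, and the p-values therefore reflect only how far these libraries spread, which may be technical.

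Annexins share a conserved core that binds membranes rich in acidic phospholipids such as phosphatidylserine when calcium rises, and differ mainly in the N-terminal stretch that recruits partner proteins. They link membranes to each other and to the cytoskeleton, help to seal damaged plasma membrane, and in some cases act outside the cell. In macrophages and other myeloid cells the family is best known through annexin A1, a glucocorticoid-regulated protein that signals through the formyl peptide receptor Fpr2 and limits inflammation. In the deposited annotation, the annexin domain was assigned to 12 genes, and all 12 carry an annexin name.

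The promoter sequences shown here belong to members that were lower after CGRP and are held in the RefSeq table of GRCm38.p6, a build older than the GRCm39 build named in the submitters' processing notes, so these positions were not used with the counts. Of the 8 members, 6 had an entry, and Anxa3 and Anxa6 did not. Each line gives the 250 bases before the annotated start, 5′ to 3′ on the gene's strand, and capitals mark a TATA box (TATAAA) or a GC box (GGGCGG).
Anxa1 at chr19:20390672-20390921, minus strand: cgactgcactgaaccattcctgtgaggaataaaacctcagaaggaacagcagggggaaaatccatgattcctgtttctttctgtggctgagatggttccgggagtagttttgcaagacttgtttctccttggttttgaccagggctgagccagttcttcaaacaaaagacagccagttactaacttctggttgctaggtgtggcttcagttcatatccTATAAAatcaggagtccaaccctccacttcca
Anxa2 at chr9:69453433-69453682, plus strand: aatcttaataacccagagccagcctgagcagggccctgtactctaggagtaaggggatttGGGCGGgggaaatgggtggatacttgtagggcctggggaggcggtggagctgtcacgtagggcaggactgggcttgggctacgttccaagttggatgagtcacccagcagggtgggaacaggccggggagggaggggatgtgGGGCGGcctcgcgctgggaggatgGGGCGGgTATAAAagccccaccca
Anxa4, its farther upstream start, at chr6:86793585-86793834, minus strand: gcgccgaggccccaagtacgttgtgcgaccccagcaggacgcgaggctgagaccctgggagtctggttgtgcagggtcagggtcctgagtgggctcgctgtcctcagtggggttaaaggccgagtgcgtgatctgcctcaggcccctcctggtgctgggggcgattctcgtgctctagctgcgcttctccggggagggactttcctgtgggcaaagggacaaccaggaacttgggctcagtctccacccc
Anxa5 at chr3:36475888-36476137, minus strand: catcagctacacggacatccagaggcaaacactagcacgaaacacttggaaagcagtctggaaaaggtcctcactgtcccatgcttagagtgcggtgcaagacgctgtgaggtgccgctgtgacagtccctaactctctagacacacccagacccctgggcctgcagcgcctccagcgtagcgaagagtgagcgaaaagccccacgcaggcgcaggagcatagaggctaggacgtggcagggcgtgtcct

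Anxa1 and Anxa2 each held 1 TATA box, 27 to 32 and 12 to 17 bases before the start, a motif present in 12.4% of the 32851 promoters of the table on either strand. Anxa2 held 3 GC boxes, the Anxa11 promoter 3, and the overlapping windows before the 2 starts of Anxa7 1 and 4, with 1 box shared, against 32.7% of all promoters with at least 1, and the Anxa5 window and the Anxa4 window printed above held none of the motifs searched. No member's window held the full cAMP response element (TGACGTCA, 1.55% of all promoters), the palindrome TTCNNNNGAA bound by STAT6 (5.85%), the full glucocorticoid response element (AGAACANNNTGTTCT, 0.00913%) or a CCAAT box (CCAAT, 33.8%). The half-site TGACG, which also lies inside the full cAMP response element, was found once, before the second start of Anxa4, and in 17.8% of all promoters. The Anxa1 window was 46.0% G and C, against 58.8% to 64.8% in the Anxa2, Anxa4 and Anxa5 windows printed above and a median of 52.4% over all promoters. Of the windows not printed, the second of Anxa4 (42%) and the first of Anxa7 (42.4%) were lower than that of Anxa1. The second window of Anxa7 (62%) and that of Anxa11 (58%) were higher. A match describes letters in this window and not a bound site.

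Of the 8 annexins, 5 fell and 1 rose with CGRP, and the other 2 did not pass the test. Anxa1 fell most, and Anxa2, Anxa3, Anxa4 and Anxa5 fell by smaller amounts, whereas Anxa6 rose. Anxa7 and Anxa11 made up the rest. All 8 members passed the count filter, and the edgeR quasi-likelihood fit covered 13260 genes, of which 3.85% were called in either direction at an adjusted p under 0.05, 1.54% as lower and 2.32% as higher. Because the members were listed with this comparison in view, nothing is read from their share against those percentages. The median log2 fold change (IL-4+CGRP over IL-4) of the 8 members was -0.235, beside -0.004 over all tested genes. The groups did not overlap for 7 of the 8 members, 6 lower and 1 higher, against 21.0% of all tested genes.

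**Figure D1:**
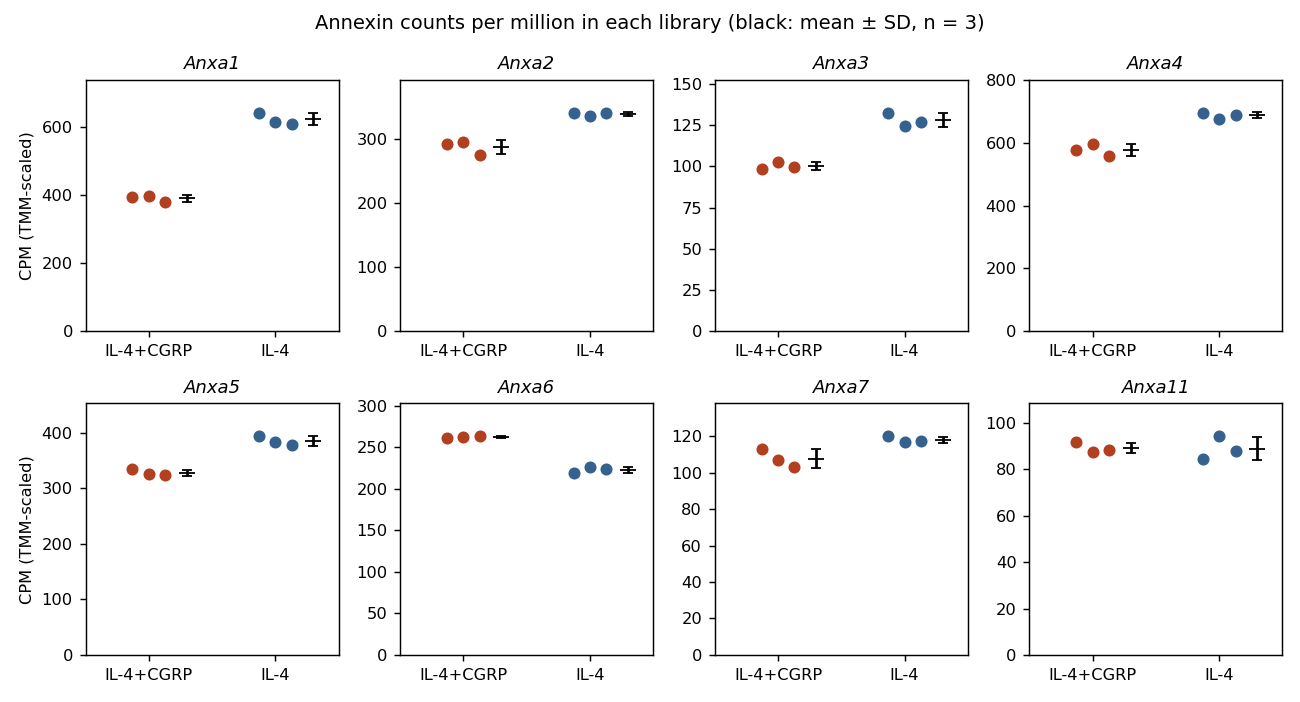
CPM (read counts per 1000000 counts of a library, scaled with TMM factors) of the 8 annexins in each library, with IL-4+CGRP libraries on the left and IL-4 libraries on the right of each panel, and the mean ± SD in black (n = 3 each). All axes start at 0; the IL-4+CGRP points lie below the IL-4 points for Anxa1 to Anxa5 and Anxa7, above them for Anxa6, and among them for Anxa11.

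Anxa1 (annexin A1, ENSMUSG00000024659) had 393, 398 and 379 CPM in IL-4+CGRP libraries, against 642, 615 and 609 CPM in IL-4 libraries. The highest IL-4+CGRP library was thus well under the lowest IL-4 library, with a gap far wider than the range within either group. Means were 390.0 ± 9.52 CPM with IL-4+CGRP and 622 ± 17.5 CPM with IL-4 (SD, n = 3 each). The log2 fold change was -0.67 ± 0.04 (SE), 1.60-fold lower, with an edgeR adjusted p = 5.4e-06. Its 95% interval, -0.77 to -0.58, shared no value with the interval of any other member, although differences between members were not tested. The raw counts behind these values were 9519, 8663 and 8421 with IL-4+CGRP and 12688, 13104 and 14609 with IL-4.

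Anxa3 (ENSMUSG00000029484), which encodes an annexin abundant in neutrophils, had the next largest decrease. It had 98.4, 103 and 99.8 CPM in IL-4+CGRP libraries, against 133, 125 and 127 CPM in IL-4 libraries, without overlap. The log2 fold change was -0.35 ± 0.05 (SE), 1.28-fold lower, with an edgeR adjusted p = 0.0028. Anxa1 and Anxa3 were the members whose calls held under all 16 alternative settings and omissions of libraries. The adjusted p reached at most 8.7e-04 for Anxa1 and 0.032 for Anxa3. Gm42603, a gene that overlaps Anxa3 on the same strand, had 1, 2 and 3 counts in IL-4+CGRP libraries, against 1, 0 and 1 counts in IL-4 libraries. Reads of the bases that Gm42603 and Anxa3 share cannot be told apart by strand.

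Anxa4, Anxa5 and Anxa2 fell by similar and smaller amounts. Annexin A4 (Anxa4, ENSMUSG00000029994) binds and orders phospholipid membranes, and its gene had the most counts of the family. It had 578, 596 and 558 CPM in IL-4+CGRP libraries, against 696, 676 and 689.6 CPM in IL-4 libraries. The lowest IL-4 library stood above every IL-4+CGRP library, and the log2 fold change was -0.25 ± 0.04 (SE; edgeR adjusted p = 0.006). Annexin A5 (Anxa5, ENSMUSG00000027712) binds exposed phosphatidylserine and is used in the laboratory to stain dying cells. Its gene had 335, 325 and 323 CPM in IL-4+CGRP libraries, against 394, 384 and 378 CPM in IL-4 libraries, again without overlap. The log2 fold change was -0.23 ± 0.04 (SE; edgeR adjusted p = 0.011).

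Annexin A2 (Anxa2, ENSMUSG00000032231) pairs with S100a10 at the cell surface, where the complex binds plasminogen and its activator. Its gene had 292, 295 and 275 CPM in IL-4+CGRP libraries, against 341, 335 and 339.6 CPM in IL-4 libraries. The IL-4 libraries lay close together and above all IL-4+CGRP libraries, of which replicate 3 was lowest, and the log2 fold change was -0.24 ± 0.05 (SE; edgeR adjusted p = 0.015). Gm16144, a gene that overlaps Anxa2 on the opposite strand, had 5, 1 and 8 counts in IL-4+CGRP libraries, against 3, 1 and 6 counts in IL-4 libraries. Since the strand setting of the counting is not given, it is not known whether reads of such a pair were kept apart. Of the other opposite-strand pairs, Gm44036 (with Anxa4) had 0 counts in every library. Anxa11os (with Anxa11) had 2, 0 and 0 counts in IL-4+CGRP libraries, against 0, 0 and 0 counts in IL-4 libraries. The calls of Anxa2, Anxa4 and Anxa5 did not hold under every omission of a single library. Anxa2 missed the threshold without IL-4+CGRP replicate 1 (adjusted p = 0.065) or 3 (0.086) and without IL-4 replicate 1 (0.068), 2 (0.078) or 3 (0.1). Anxa5 missed it without IL-4+CGRP replicate 3 (0.055) and without IL-4 replicate 1 (0.066), 2 (0.074) or 3 (0.061), and of the single omissions Anxa4 missed it without IL-4 replicate 3 (0.061). Their log2 fold changes stayed between -0.28 and -0.21 under every setting run.

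Anxa6 (ENSMUSG00000018340) was the member that rose. Annexin A6 has a longer core than its relatives and is known for work on late endosomes and cholesterol handling. The gene had 261, 262 and 263 CPM in IL-4+CGRP libraries, against 219, 226 and 223 CPM in IL-4 libraries. The spread within IL-4+CGRP was under 1 CPM (SD 0.956), and no IL-4 library reached that group. The log2 fold change was 0.23 ± 0.04 (SE), 1.18-fold higher, with an edgeR adjusted p = 0.012. This call ended without IL-4+CGRP replicate 1 (adjusted p = 0.085) or 3 (0.072) and without IL-4 replicate 1 (0.07), 2 (0.066) or 3 (0.12), while the log2 fold change stayed between 0.22 and 0.26.

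Anxa7 and Anxa11, a pair of annexins with long N-terminal regions, did not pass. Annexin A7 (Anxa7, ENSMUSG00000021814), first described as the membrane fusion protein synexin, had 113, 107 and 103 CPM in IL-4+CGRP libraries, against 119.9, 117 and 117 CPM in IL-4 libraries. The groups did not overlap, but the log2 fold change of -0.13 ± 0.05 (SE; 95% interval -0.25 to -0.01) had an edgeR adjusted p = 0.27 (unadjusted p = 0.034). Annexin A11 (Anxa11, ENSMUSG00000021866) tethers RNA granules to lysosomes. Its gene had 91.8, 87.6 and 88.3 CPM in IL-4+CGRP libraries, against 84.4, 94.3 and 88.1 CPM in IL-4 libraries. The values intermixed, and the log2 fold change was 0.01 ± 0.06 (SE; 95% interval -0.12 to 0.13; edgeR adjusted p = 0.97). The interval of Anxa11 leaves room for a small change either way. Of all members, Anxa11 is the least certain in its counts, since transcripts of the pseudogenes Gm2260 and Gm2274 match it over 657 bases at 100% identity and 609 bases at 99.7%, and neither has a row of that name in the table.

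**Figure D2:**
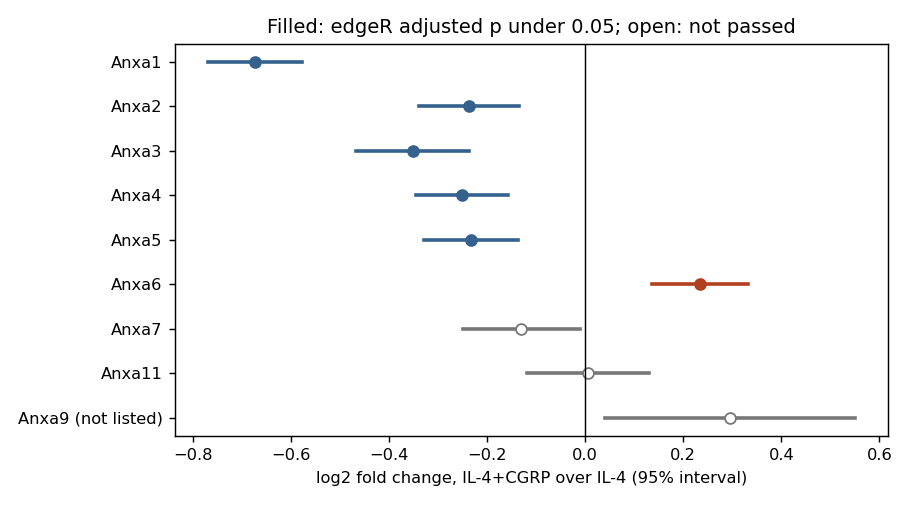
Log2 fold change of each annexin (IL-4+CGRP over IL-4) with its 95% interval from the edgeR fit; filled points passed an adjusted p of 0.05, open points did not. Anxa1 lies apart at -0.67, Anxa2 to Anxa5 lie between -0.35 and -0.23, Anxa6 is at 0.23, and Anxa9, an annexin outside the listed members, is at 0.30 with a wide interval.

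The 4 annexin genes outside the list were far scarcer. Anxa9 (ENSMUSG00000015702) had 8.54, 7.48 and 8.69 CPM in IL-4+CGRP libraries, against 6.73, 7.23 and 6.21 CPM in IL-4 libraries. All IL-4+CGRP values lay above all IL-4 values, but the log2 fold change of 0.30 ± 0.12 (SE) did not pass (edgeR adjusted p = 0.24). Anxa8 had 1, 4 and 3 counts in IL-4+CGRP libraries, against 3, 5 and 4 counts in IL-4 libraries. Anxa13 had 1, 6 and 0 counts in IL-4+CGRP libraries, against 1, 0 and 1 counts in IL-4 libraries. Both were too low to be tested. Anxa10 had 0 counts in all 6 libraries, which allows up to 3 counts, or 0.125 to 0.149 CPM, in a library (counting error only).

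To rank the genes against each other, counts were divided by the deposited gene length and scaled to 1000000 per library (TPM). In IL-4+CGRP libraries Anxa4 was highest, at 678, 643 and 651 TPM, and Anxa1 came next at 559, 521 and 537 TPM. In IL-4 libraries the order of these genes was turned round, with Anxa4 at 736, 748 and 769 TPM and Anxa1 at 823, 825 and 824 TPM. The values of Anxa4 and Anxa1 did not overlap within either group. On counts alone, without division by length, Anxa4 exceeded Anxa1 in all 6 libraries, so the order in IL-4 libraries rests on the deposited lengths of 2030 and 1674 bases. The ratio of Anxa1 to Anxa4 counts needs neither length nor scaling. It was 0.676 ± 0.00684 with IL-4+CGRP and 0.905 ± 0.0198 with IL-4 (SD, n = 3 each).

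Below this pair, Anxa2 and Anxa5 overlapped in IL-4+CGRP libraries, at 447 to 480.0 and 412 to 460.1 TPM, and did not overlap in IL-4 libraries, at 505 to 531 and 488 to 499 TPM. Anxa6 followed at 231 to 250.4 TPM with IL-4+CGRP and 189 to 204 TPM with IL-4. Anxa3 came under it in both groups, at 142 to 148 TPM with IL-4+CGRP and 176 to 180.4 TPM with IL-4. The ratio of Anxa6 to Anxa3 counts was 2.61 ± 0.0563 with IL-4+CGRP and 1.74 ± 0.0823 with IL-4 (SD, n = 3 each). Anxa7 and Anxa11 were lowest, at 80.7 to 92.7 and 80.3 to 91.3 TPM with IL-4+CGRP, overlapping, and at 88.6 to 91.4 and 75.6 to 88.4 TPM with IL-4, where they stood just apart. These places too rest on the deposited lengths: on counts Anxa5 exceeded Anxa2 in all 6 libraries, and Anxa7 exceeded Anxa3 in the IL-4+CGRP libraries (103 to 113 CPM for Anxa7, 98.4 to 103 CPM for Anxa3).

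**Figure D3:**
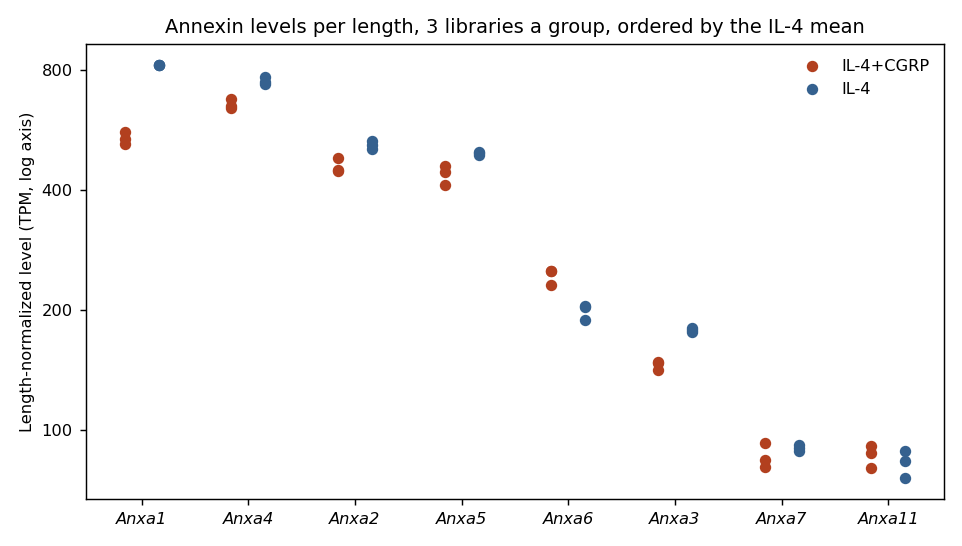
Length-normalized level (TPM, log axis) of each annexin in the 3 IL-4+CGRP libraries and the 3 IL-4 libraries, with genes ordered by their IL-4 mean. Anxa4 is above Anxa1 with IL-4+CGRP and below it with IL-4, and the other genes keep their places apart from the near-equal Anxa7 and Anxa11.

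Summed over the 8 members, the length-normalized level was 2655 ± 100 TPM with IL-4+CGRP and 3137 ± 47.9 TPM with IL-4 (SD, n = 3 each). Per library it was 2758, 2558 and 2650.3 TPM with IL-4+CGRP, against 3084, 3150 and 3177 TPM with IL-4, so the groups did not overlap. Anxa1 made up 20.3 ± 0.07% of that sum with IL-4+CGRP and 26.3 ± 0.38% with IL-4. Anxa6 made up 9.18 ± 0.23% with IL-4+CGRP and 6.34 ± 0.19% with IL-4. These sizes rest on the deposited lengths. On CPM, without division by length, Anxa1 made up 18.2% with IL-4+CGRP and 24.0% with IL-4, and Anxa6 12.25% and 8.61%. A share also rises when another member falls. The shares of the members that fell with Anxa1 moved little, for example Anxa2 at 17.3 ± 0.27% with IL-4+CGRP and 16.5 ± 0.18% with IL-4 (SD, n = 3 each). Likewise the count ratio of Anxa2 to Anxa5 was 0.876 ± 0.0285 with IL-4+CGRP and 0.878 ± 0.0186 with IL-4. In bulk RNA, fewer cells that express a gene and less RNA per cell cannot be told apart.

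Among 8265 genes with a mean of at least 10 CPM, the 3 whose log2 CPM followed Anxa1 most closely over the 6 libraries were Hyou1 (Pearson r = 0.999), Mdh1 (0.997) and Slamf9 (0.996). Such a correlation over 6 libraries in 2 groups mainly restates a difference between the groups, and it is given as a description. Hyou1, an endoplasmic reticulum chaperone, had 145, 146 and 145 CPM in IL-4+CGRP libraries, against 168, 167 and 167 CPM in IL-4 libraries. Slamf9, a surface receptor of the SLAM family, had 80.4, 84.8 and 73.9 CPM in IL-4+CGRP libraries, against 157, 155 and 157 CPM in IL-4 libraries. Mdh1, the cytosolic malate dehydrogenase, had 115, 118 and 114 CPM in IL-4+CGRP libraries, against 148, 144 and 145 CPM in IL-4 libraries. None of the 3 overlapped between groups, which their choice nearly requires.

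The protein partners of annexins showed no called change. For this list and each later list, cell type markers included, the shares over all tested genes were 3.85% called and 21.0% without overlap. The share of all tested genes with an unadjusted p under 0.05 was not taken. Since the lists were chosen with earlier results known, nothing is read from such counts. Of 9 tested genes for S100 proteins and other partners, 0 passed the edgeR test, 0 had an unadjusted p under 0.05, and DESeq2 and limma-voom called 0. S100a10, the partner of annexin A2, had 32.7, 41.3 and 31.5 CPM in IL-4+CGRP libraries, against 42.4, 37.1 and 37.7 CPM in IL-4 libraries. IL-4+CGRP replicate 2 was high among its group, and the log2 fold change was -0.15 ± 0.10 (SE; edgeR adjusted p = 0.53). Without IL-4+CGRP replicate 2 it was -0.28 and S100a10 was called lower (adjusted p = 0.015), as it was with IL-4 replicate 1 also left out (-0.22, adjusted p = 0.02). S100a11, a partner of annexin A1, had 40.5, 60.1 and 33.1 CPM in IL-4+CGRP libraries, against 52.4, 31.8 and 41.4 CPM in IL-4 libraries. Its groups overlapped widely (edgeR adjusted p = 0.92). All 6 S100 genes of the list (S100a1, S100a4, S100a6, S100a10, S100a11 and S100a13) were highest in IL-4+CGRP replicate 2 within that group and in IL-4 replicate 1 within the other. Sri (sorcin, a calcium-binding partner of annexin A7) had 59.0, 68.9 and 56.7 CPM in IL-4+CGRP libraries, against 72.8, 67.6 and 64.7 CPM in IL-4 libraries, with overlap (edgeR adjusted p = 0.37). Ahnak, a very large scaffold protein that binds the annexin A2 complex, had 1359.7, 1246 and 1427 CPM in IL-4+CGRP libraries, against 1339, 1301 and 1430.2 CPM in IL-4 libraries (edgeR adjusted p = 0.93).

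The receptors through which annexin A1 acts had few counts. Fpr2 had 14, 14 and 12 counts in IL-4+CGRP libraries, against 8, 22 and 19 counts in IL-4 libraries, and the log2 fold change was -0.35 ± 0.38 (SE; 95% interval -1.18 to 0.49; edgeR adjusted p = 0.71). Fpr1 had 4, 10 and 5 counts in IL-4+CGRP libraries, against 9, 4 and 9 counts in IL-4 libraries, too few to be tested. Of the 7 formyl peptide receptor genes listed, Fpr2 alone was tested, and 4 (Fpr-rs3, Fpr-rs4, Fpr-rs6 and Fpr-rs7) had 0 counts throughout. The interval of Fpr2 leaves room for a change in either direction.

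Phospholipases A2, which release fatty acids from phospholipids and which annexin A1 was first described as inhibiting, had 1 of 8 tested members higher and 0 lower. That gene was Pla2g7 (platelet-activating factor acetylhydrolase), with 337, 323 and 325 CPM in IL-4+CGRP libraries, against 177, 179 and 177 CPM in IL-4 libraries. It had a log2 fold change of 0.89 ± 0.05 (SE; edgeR adjusted p = 1.3e-06), held under every setting run. Of the 8 tested, 3 had an unadjusted p under 0.05. Without overlap between groups were 4, all of them higher, against 21.0% of all tested genes. Besides Pla2g7 these were the secreted enzymes Pla2g5 (log2 fold change 0.54 ± 0.16, SE; edgeR adjusted p = 0.1), Pla2g2e (0.32 ± 0.14; 0.29) and Pla2g12a (0.19 ± 0.12; 0.48), which did not pass.

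Of the glucocorticoid receptor and its common targets, 1 of 8 tested genes fell and 0 rose. It was Sgk1, a serum- and glucocorticoid-regulated kinase, with 100.3, 92.0 and 93.1 CPM in IL-4+CGRP libraries, against 117, 127 and 116 CPM in IL-4 libraries (log2 fold change -0.33 ± 0.06, SE; edgeR adjusted p = 0.0078). Of the single omissions, that of IL-4 replicate 2 ended the Sgk1 call (adjusted p = 0.065). Groups did not overlap for 4 of the 8 tested genes, 3 lower and 1 higher, against 21.0% of all tested genes. Besides Sgk1 the lower genes were Fkbp5 (log2 fold change -0.18, edgeR adjusted p = 0.39) and Klf9 (-0.19, edgeR adjusted p = 0.39), which did not pass. The higher gene was Tsc22d3. Tsc22d3 (GILZ) measured 109 ± 0.118 CPM with IL-4+CGRP and 107 ± 2.11 CPM with IL-4, and the receptor gene Nr3c1 94.5 ± 7.11 CPM with IL-4+CGRP and 90.6 ± 2.04 CPM with IL-4 (SD, n = 3 each; edgeR adjusted p = 0.82 and 0.69).

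Of plasma membrane repair genes, 0 of 13 tested rose and 1 fell, Myof (myoferlin, a large calcium sensor of the ferlin family). Myof had 581, 511 and 576 CPM in IL-4+CGRP libraries, against 661, 695 and 678 CPM in IL-4 libraries. The log2 fold change was -0.29 ± 0.05 (SE; edgeR adjusted p = 0.011), and of the single omissions those of IL-4 replicate 2 (adjusted p = 0.1) or 3 (0.064) ended the call.

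Of genes for phosphatidylserine transport and exposure, 0 of 10 passed the edgeR test, 2 had an unadjusted p under 0.05, and DESeq2 and limma-voom called 0. The most abundant were Mfge8, a bridging protein for uptake of dying cells, and Ano6, a scramblase. Mfge8 measured 324 ± 3.32 CPM with IL-4+CGRP and 353 ± 5.44 CPM with IL-4 (SD, n = 3 each; edgeR adjusted p = 0.17). Ano6 measured 284 ± 35.9 CPM with IL-4+CGRP and 257 ± 17.4 CPM with IL-4 (SD, n = 3 each; edgeR adjusted p = 0.53).

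**Figure D4:**
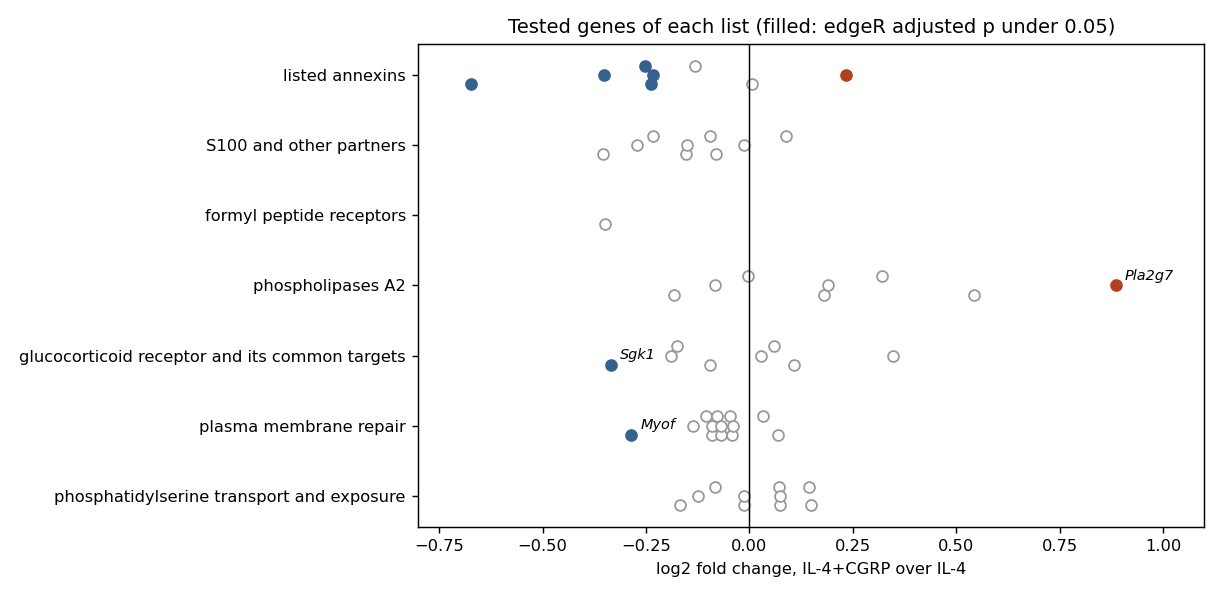
Log2 fold change (IL-4+CGRP over IL-4) of each tested gene in the annexin list and 6 lists of related genes, with 1 point per gene; filled points passed an edgeR adjusted p of 0.05. Among the related lists the passing genes were Pla2g7 (higher) and Sgk1 and Myof (lower).

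Libraries held 20088895 to 24060444 counts with pairwise Pearson correlations of 0.982 to 0.993 (log2 CPM, taken over genes, which are no independent replicates). IL-4+CGRP replicate 2 stood apart, at 0.169 on the first principal component (37.6% of variance), against -22.0 and -27.0 for replicates 1 and 3 of its group and 11.2 to 26.0 for the IL-4 libraries. For Anxa1 it had 398 CPM, close to 393 and 379 CPM in its group, and without it the same 5 members were lower and Anxa6 higher. All 8 macrophage markers were detected, and among them Cd14 was called higher and 0 were called lower. An unadjusted edgeR p under 0.05 was found for 4, Cd14 included. The others were Adgre1 (log2 fold change -0.11, edgeR adjusted p = 0.19) and Cd68 (-0.10, 0.27), lower, and Csf1r (0.09, 0.28), higher. Groups did not overlap for 2 of the 8, Cd14 higher and Adgre1 lower, against 21.0% of all tested genes. Neutrophil markers, relevant since neutrophils are rich in Anxa1 and Anxa3, summed to 399 to 437 CPM with IL-4+CGRP and 363 to 408 CPM with IL-4, mostly Csf3r. Of 8 tested, 0 passed edgeR, 1 had an unadjusted p under 0.05, DESeq2 and limma-voom called 0, and Ly6g had 0 counts throughout. That 1 gene was Mpo, lower with IL-4+CGRP without overlap (log2 fold change -0.42, edgeR adjusted p = 0.2). The median log2 fold change of the tested neutrophil markers was 0.042, and that of Csf3r was 0.13 (edgeR adjusted p = 0.4). Dendritic cell markers summed to 30.0 to 32.2 CPM with IL-4+CGRP and 23.4 to 26.1 CPM with IL-4, mostly Ccr7. The mean of Ccr7 was 27.5 CPM with IL-4+CGRP and 19.9 CPM with IL-4. Of 5 tested, Ccr7 was higher, Siglech was lower and 3 did not pass. Endothelial markers summed to 144 to 164 CPM with IL-4+CGRP and 105 to 122 CPM with IL-4, with Pecam1 (edgeR adjusted p = 0.0011) and Kdr (0.046) higher among 3 tested and Cdh5 under 2 CPM; DESeq2 and limma-voom each called 1 of the 3. The part of these markers in the annexin differences was not tested. Of mast cell and basophil markers 0 of 4 tested passed, of lymphocyte markers 0 of 8, of fibroblast markers 0 of 6 and of erythroid and megakaryocyte markers 0 of 2. In these lists DESeq2 and limma-voom called 0, and 1, 1, 2 and 0 genes had an unadjusted edgeR p under 0.05.

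**Figure D5:**
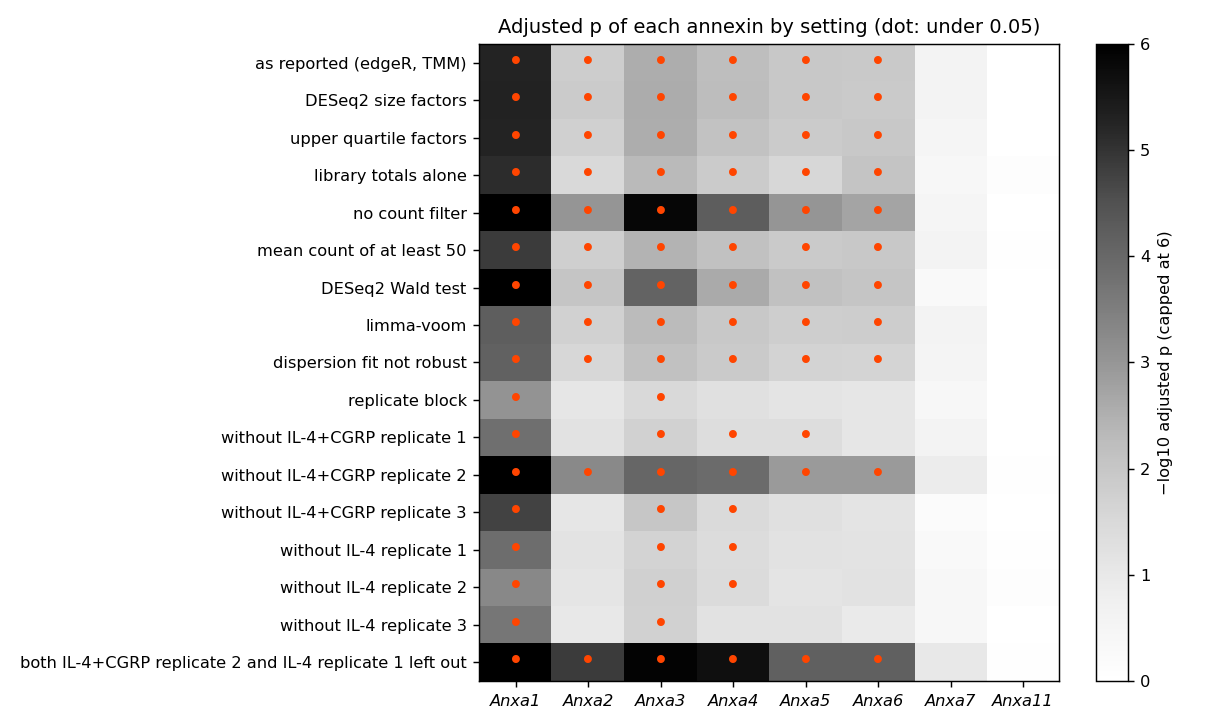
Adjusted p of each annexin (shade, −log10 scale capped at 6) in the fit as reported and under 16 other settings; dots mark an adjusted p under 0.05. Anxa1 and Anxa3 have a dot in every row, Anxa7 and Anxa11 in none, and Anxa2, Anxa4, Anxa5 and Anxa6 lose theirs in 2 to 6 rows, all of which leave out a library or add the replicate block.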

How the data were processed

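RNA was sequenced from 6 macrophage cultures, 3 with IL-4+CGRP and 3 with IL-4. Per the labels' protocols, libraries were made with a stranded mRNA kit. The submitters' processing notes name build GRCm39 and the tools StringTie, HISAT2 and fastp. Versions, annotation, the counting step and its strand setting were not given in the sources used here. The authors deposited estimated counts per gene (not whole, at a tolerance of 1e-06, in 23.3% to 26.6% of each library's values above 0) and a gene length in bases, whose definition is not given. The authors' group means were used only to check the columns; 0 columns were unassigned.

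Counts were rounded, filtered with filterByExpr (13260 of 57180 genes, 99.91% of counts), scaled with TMM (factors 0.985 to 1.016) and compared with the edgeR 4.0.16 quasi-likelihood F test (R 4.3.3, robust, two-sided, no covariates), adjusted by Benjamini-Hochberg across the 13260 genes, with calls under 0.05. Each SE was the size of the log2 fold change over the root of its F. CPM use TMM-scaled totals; TPM use unrounded counts, deposited lengths and all genes. Alternatives used DESeq2 1.42.0, limma 3.58.1 (voom), other scalings and filters, a replicate block and omission of libraries; omission of IL-4+CGRP replicate 2 with IL-4 replicate 1 was added after seeing the data. The fit was tested on simulated counts, with changed genes drawn from tested genes of any level, 50 for each fold. It recovered 32% of those changed 1.3-fold, 52% at 1.5-fold, 72% at 2-fold and 96% at 4-fold. Of unchanged genes it called 0.115%. A gene that did not pass is therefore not shown to be unchanged.

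Members and lists were chosen with earlier results of these data known. Genes named are all annexins, passing members of 6 related lists (otherwise the most abundant, plus Fpr1, Fpr2 and S100a10) and the 3 genes most correlated with Anxa1. A few further list members were named after their values were seen. These were the S100 genes other than S100a10, Pla2g5, Pla2g2e, Pla2g12a, Tsc22d3, Nr3c1, Fkbp5 and Klf9. No naming rule covered single cell type markers, and those named were likewise picked with their values known. A further related list is not reported here. Near-identical copies were sought with BLAST+ 2.17.0 in GENCODE transcripts (at least 95% identity over 200 bases). Promoters come from RefSeq. The outlier comparison within groups needs at least 4 samples and was not made.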

Additional observations from a re-analysis of the deposited data

How the results depend on the processing

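The counts of 5 annexins lower and 1 higher with CGRP were unchanged under limma-voom and the DESeq2 Wald test, with 3 other scalings (library totals, upper quartile, DESeq2), without a count filter or with a mean count of at least 50, without robust dispersions, and with both IL-4+CGRP replicate 2 and IL-4 replicate 1 left out. Leaving out 1 library at a time gave 2 to 5 annexins lower and 0 to 1 higher. Over all genes, those fits called 140 to 915 higher and 80 to 950 lower, against 307 and 204 with all libraries, with 915 and 950 without IL-4+CGRP replicate 2, and 140 to 194 higher and 80 to 119 lower without any 1 of the other 5 libraries. Leaving out both libraries gave 1066 genes higher and 1187 lower, and no count filter 584 higher and 434 lower; the cause was not tested. With library totals alone 354 genes were higher and 143 lower.

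Whether the replicate numbers pair the samples is not stated in the labels. Deviations of same-numbered libraries from their group means correlated at -0.188, -0.182 and 0.13. Those of differently numbered libraries correlated at -0.178 to 0.287. With 3 libraries in each group, these correlations cannot decide whether the numbers are pairs. With the replicate block 2 annexins were lower (Anxa1 and Anxa3) and 0 higher: Anxa2 (adjusted p = 0.088), Anxa4 (0.057), Anxa5 (0.074) and Anxa6 (0.086) missed the threshold, as did Sgk1 (0.052) and Myof (0.071), and 176 genes were higher and 86 lower over all genes. Anxa11, close to 0 throughout, changed sign without IL-4+CGRP replicate 1 (log2 fold change -0.02), IL-4 replicate 1 (-0.0316) or IL-4 replicate 3 (-0.009), and with both IL-4+CGRP replicate 2 and IL-4 replicate 1 left out (-0.017), never past the threshold, and leaving out 1 library gave -0.0316 to 0.0486. Depth limits the precision for scarce transcripts such as the formyl peptide receptors; the annexins listed had 1667 to 16535 counts in every library.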
